A study of Mus musculus with 11 samples.

Results

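The 8 genes described here are known from adipocytes and were followed in adrenal RNA of mINDY-KO mice and WT littermates: Adipoq, Car3, Cfd, Fabp4, Plin1, Retn, Cidec and Ucp1. The members were all probes whose platform gene symbol was 1 of the 8 names. Of the 8 listed genes, 7 had a probe, each 1 probe, out of 16593 genes with a named probe and 25697 probes in all, and Cfd was not analysed here. Whole adrenals of 5 mINDY-KO and 5 WT mice were hybridised to 11 one-colour Illumina MouseRef-8 v2 bead arrays, WT replicate 1 on 2 of them, whose values were averaged. All mice were males of 12 to 16 weeks on a C57B/6J background that ate regular chow. The mINDY-KO mice were homozygous for a deletion of Slc13a5, the sodium-coupled citrate carrier, made through mating with Hprt1-Cre mice, so that the deletion was not limited to the adrenal. The comparison asked which adipocyte transcripts differed between genotypes in the adrenal.

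White adipocytes store triglyceride in a lipid droplet coated by perilipin and secrete hormones such as adiponectin, while brown adipocytes burn fat through the uncoupling protein of their mitochondria. The mouse adrenal lies in perirenal fat, and adipocytes are not among the steroid-producing cells of its cortex or the catecholamine-producing cells of its medulla. In RNA of a whole organ, more cells of a type and more RNA per cell cannot be told apart. RNA from fat attached to the gland and RNA from cells within it also cannot be told apart here.

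Promoter sequences of the members whose levels are described most fully are shown because the levels of Adipoq and Cidec varied together across mice and Plin1 did so less. The windows run from 250 bases before to 50 after each start in RefSeq, build GRCm38.p6. Of the 8 genes, 6 had an entry, with 7 windows in all, and Car3 and Fabp4 had none. Capitals mark TTGCNNAA, the letters of a C/EBP-type element. Adipoq, which lies at chr16:23146536-23157968, encodes adiponectin, and its window held none of the motifs searched. Cidec, at chr6:113424634-113435760, encodes a lipid droplet fusion protein and has 2 starts, of which the second is shown. Plin1, at chr7:79721164-79732904, encodes perilipin 1.
Adipoq, chr16:23146286-23146585, plus strand: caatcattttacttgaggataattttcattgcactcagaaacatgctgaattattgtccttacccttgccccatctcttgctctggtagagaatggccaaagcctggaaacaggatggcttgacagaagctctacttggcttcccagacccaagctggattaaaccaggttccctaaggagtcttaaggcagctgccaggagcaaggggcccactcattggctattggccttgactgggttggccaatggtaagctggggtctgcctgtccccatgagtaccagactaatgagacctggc
Cidec, start 2, chr6:113434715-113435014, minus strand: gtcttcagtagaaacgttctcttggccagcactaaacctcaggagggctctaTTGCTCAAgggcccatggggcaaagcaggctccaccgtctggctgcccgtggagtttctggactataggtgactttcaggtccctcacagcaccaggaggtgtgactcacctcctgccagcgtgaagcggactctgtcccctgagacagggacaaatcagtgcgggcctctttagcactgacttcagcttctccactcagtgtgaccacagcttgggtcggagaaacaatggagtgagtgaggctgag
Plin1, chr7:79732727-79733026, minus strand: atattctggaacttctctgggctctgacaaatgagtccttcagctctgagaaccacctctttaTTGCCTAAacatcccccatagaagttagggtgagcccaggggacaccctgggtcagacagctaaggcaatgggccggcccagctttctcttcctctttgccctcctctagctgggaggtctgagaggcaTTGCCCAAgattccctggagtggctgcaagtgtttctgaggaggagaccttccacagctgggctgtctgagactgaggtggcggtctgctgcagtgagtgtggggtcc
The motifs were searched on both strands: the DR1 element of PPARG and RXR, AGGTCA (which can lie within it), TTGCNNAA and TATAAA. They were found in 0.381%, 16.3%, 10.8% and 13.6% of 32851 promoters of the same length. TTGCNNAA began at -198 in the Cidec window and at -187 and -58 in the Plin1 window. AGGTCA began at -14 in the window of Ucp1, and the windows of Retn and Cfd and the other start of Cidec held no match. A match is a match of letters and no test of binding.

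Array signals reached similar numbers of probes. Between 13260 and 13538 probes an array had a detection p under 0.05, the share of negative control beads with at least as much signal, and median signals ran from 122 to 238. The lowest medians were those of mINDY-KO replicates 4 (122) and 3 (127), against 150 to 202 on WT arrays. The 2 arrays of WT replicate 1 correlated at 0.996 over all probes, against 0.981 to 0.994 between WT mice. The probe of Slc13a5 was above background on no array of either genotype and did not check the labels. Background was not subtracted, so differences of dim probes are compressed. Levels are given in log2 units from the mean of each array, and 1 unit is a 2-fold difference in signal. With 5 mice a group, the mice and not the beads limit the precision.

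Adipoq, Car3 and Cidec had higher means in mINDY-KO mice than in WT mice, Plin1 did not differ beyond its spread, and Fabp4, Retn and Ucp1 were at background in nearly all mice. Across all 13341 probes that were above background in at least 5 mice, limma called 0.015% between genotypes at an adjusted p under 0.05, with 0.0075% higher and 0.0075% lower in mINDY-KO mice. It called 0 of the 3 members among those probes, Adipoq, Car3 and Plin1. At an unadjusted p under 0.05, which 10.9% of all probes reached, 2 of these 3 members were higher and 0 lower in mINDY-KO mice, where 4.29% of all probes were higher and 6.65% lower. The count of 2 depended on the test. With an intensity trend and robust variances in limma it was 0 (unadjusted p 0.063 for Adipoq and 0.058 for Car3), while 1411 probes reached 0.05. With an ordinary t test it was also 0 (0.072 and 0.066), while 1383 probes did. None of the 3 separated the genotypes fully: for 0.742% of all probes every mINDY-KO mouse lay above all WT mice, and for 1.32% below. A large part of the mean difference of Adipoq and Car3 came from mINDY-KO replicate 5, and values without it are given beside theirs.

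Adiponectin, the hormone that adipocytes secrete, is encoded by Adipoq. Its level in WT replicates 1 to 5 was -0.63, -0.04, -0.91, -0.92 and -0.76, and in mINDY-KO replicates 1 to 5 it was -0.18, -0.03, -0.04, -0.65 and 1.16. In WT replicate 2 the level lay with most mINDY-KO mice, and in mINDY-KO replicate 4 it lay among the WT mice, so the groups overlapped. Adipoq was above background in 3 of 5 WT mice and in 5 of 5 mINDY-KO mice. The raw signal was 774 in mINDY-KO replicate 5, 136 to 425 in the other mINDY-KO mice and 171 to 316 in WT mice. The group means were -0.65 ± 0.36 (SD, n = 5) and 0.05 ± 0.67 (SD, n = 5), a difference of 0.70 (SE 0.26), or 1.63-fold, with an adjusted p of 0.348 by limma. Without mINDY-KO replicate 5 the difference was 0.43 (SE 0.17, limma adjusted p 0.418), and its sign did not change.

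Car3, at chr3:14863538-14872381, encodes carbonic anhydrase 3, an abundant cytosolic protein of adipocytes that skeletal muscle and liver also hold. Its level was -0.65, -0.51, -0.95, -0.78 and -0.78 in WT replicates 1 to 5 and -0.09, 0.0017, -0.35, -0.78 and 1.25 in mINDY-KO replicates 1 to 5. The 5 WT mice lay between -0.95 and -0.51, 4 of 5 mINDY-KO mice lay above all of them, and mINDY-KO replicate 4 lay within their range. Car3 was above background in 4 of 5 WT mice and in 5 of 5 mINDY-KO mice. The raw signal was 826 in mINDY-KO replicate 5, 125 to 436 in the other mINDY-KO mice and 166 to 228 in WT mice. The means were -0.73 ± 0.16 (SD, n = 5) and 0.0059 ± 0.76 (SD, n = 5), a difference of 0.74 (SE 0.26), or 1.67-fold, with an adjusted p of 0.328 by limma. Without mINDY-KO replicate 5 the difference was 0.43 (SE 0.14, limma adjusted p 0.341). The arrays of WT replicate 1 differed by 0.18 for Car3 and by 0.093 for Adipoq. Of 12 skeletal muscle genes on the array, 10, among them Acta1, Ckm and Myh4, were not above background in 5 mice, and the mean level of the other 2 in mINDY-KO replicate 5 was 0.20, within the 0.031 to 0.45 of WT mice. Of 11 liver genes on the array, 7, Alb and Ttr among them, were also not above background in 5 mice. The mean level of the other 4 was -0.071 in mINDY-KO replicate 5, above the -0.306 to -0.091 of WT mice. It was as high as -0.065 among the other mINDY-KO mice. Cyp2e1, a cytochrome P450 of liver that other tissues also express, was 1.60 in mINDY-KO replicate 5 and at most 1.38 in the others. Its r with the members' mean was 0.728 over 10 mice and 0.315 without that mouse. The part of liver or muscle RNA in the Car3 values was not tested.

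Cidec, which enlarges the lipid droplet of white adipocytes, was dim. Its probe was above background in 3 of 5 mINDY-KO mice and 0 of 5 WT mice. The level in WT replicates 1 to 5 was -1.12, -0.94, -1.21, -1.16 and -1.12, and in mINDY-KO replicates 1 to 5 it was -0.92, -0.79, -0.70, -0.98 and -0.56. In 4 of 5 mINDY-KO mice the level exceeded that of all WT mice, and replicate 4 lay below WT replicate 2. For mINDY-KO replicate 1 the margin was narrow, at -0.92 against -0.94 in WT replicate 2, and neither was above background. No WT mouse gave a level above background, so WT mice were also set to the lowest signal that counted as detected, a level of -0.87. The measured mean of the 5 mINDY-KO mice was 1.05-fold that level. Of these mice, replicates 1 and 4 were not above background and entered at measured levels below -0.87, so 1.05-fold is not a strict lower bound. The measured means were -1.11 ± 0.10 and -0.79 ± 0.17 (SD, n = 5 each), 0.32 apart, and 0.26 apart without mINDY-KO replicate 5. Cidec did not enter the test on probes above background in 5 mice, and with no filter, where 0% of 25697 probes were called by limma and 3.55% were higher at an unadjusted p under 0.05, its unadjusted p was 0.00183 and its adjusted p 0.239 by limma.

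Plin1, whose protein guards stored triglyceride from lipases, was above background in all 10 mice. Its level was 0.04, 0.24, 0.10, 0.44 and -0.02 in WT replicates 1 to 5 and 0.22, 0.10, 0.14, -0.05 and 0.56 in mINDY-KO replicates 1 to 5. The groups overlapped over most of their range, although the highest value again came from mINDY-KO replicate 5. The means were 0.16 ± 0.18 and 0.20 ± 0.22 (SD, n = 5 each), a difference of 0.033 (SE 0.11, limma adjusted p 0.946). Without mINDY-KO replicate 5 the sign turned, to -0.057 (SE 0.099, limma adjusted p 0.883).

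Fabp4, the fatty acid carrier of adipocytes at chr3:10204342-10208616, and Ucp1, the uncoupling protein of brown fat at chr8:83290348-83298456, were above background in none of the 10 mice. Fabp4 lay between -1.25 and -1.04 and Ucp1 between -1.24 and -0.93. Retn, at chr8:3655770-3659818, encodes resistin, a hormone of mouse adipocytes, and was above background in 1 WT mouse and no mINDY-KO mouse, with levels from -1.50 to -0.83. For these 3 genes no difference was detectable with these probes, which does not show that the transcripts were absent. Of the 7 members measured, the mean was higher in mINDY-KO mice for 6, which include Fabp4 (0.045) and Ucp1 (0.016), and lower for 1, and 4 were highest in mINDY-KO replicate 5. Over 9302 genes above background, 43.6% had a higher mean in mINDY-KO mice and 9.44% were highest in that mouse.

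**Figure D1:**
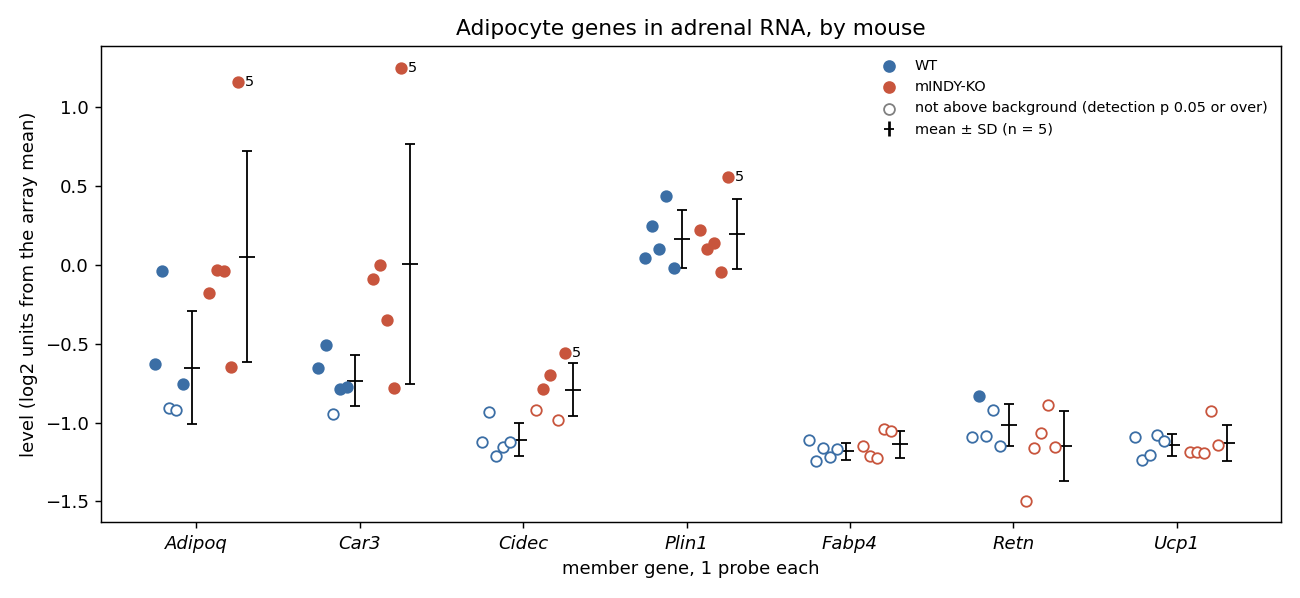
Level of each member gene (log2 units from the array mean) in every WT and mINDY-KO mouse, with mean ± SD beside each group of 5; open points were not above background. The point marked 5 is mINDY-KO replicate 5, at 1.16 for Adipoq and 1.25 for Car3, while Fabp4, Retn and Ucp1 stay at background.

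Adipoq, Car3 and Cidec varied together across mice. Over 10 mice of both genotypes, Adipoq and Car3 had a Pearson r of 0.955 and a Spearman rho of 0.939, and Adipoq and Cidec had 0.924 and 0.952. Without mINDY-KO replicate 5 the r values over 9 mice were 0.861 and 0.906. Both genotypes enter these values, which are descriptions. Plin1 had an r with Adipoq of 0.587 over 10 mice, and single mice moved it far. It was 0.062 without mINDY-KO replicate 5, 0.910 without WT replicate 4, which had the highest Plin1 level among WT mice and the lowest Adipoq level, and 0.695 without both. WT replicate 4 was left out here after its values were seen. With Car3 the r of Plin1 was 0.651 over 10 mice, 0.143 without mINDY-KO replicate 5, 0.884 without WT replicate 4 and 0.557 without both.

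**Figure D2:**
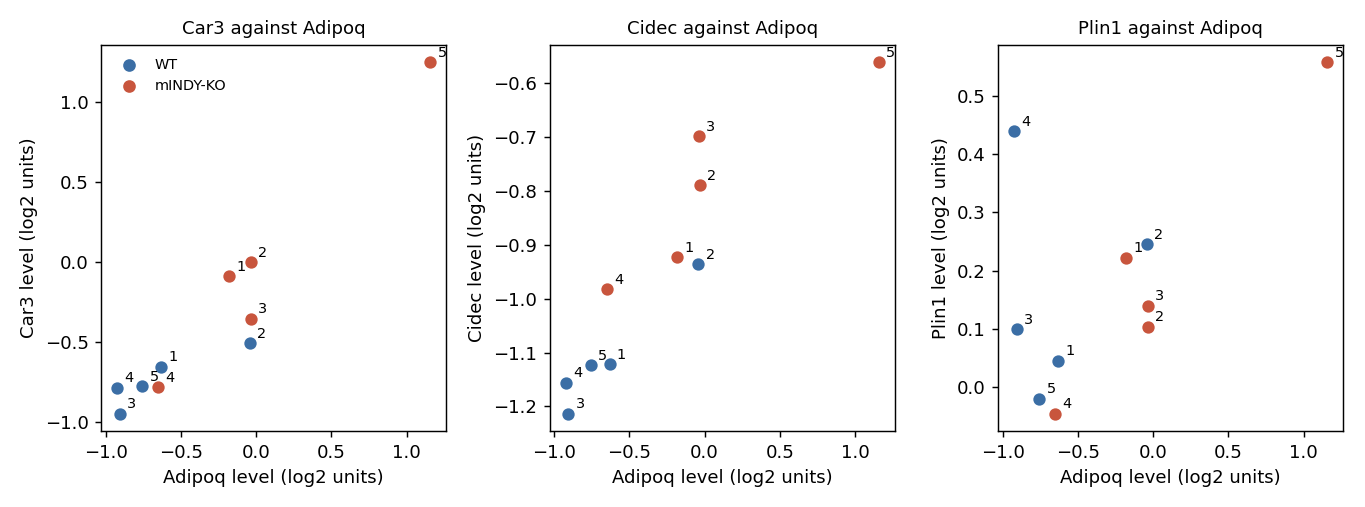
Levels (log2 units from the array mean) of Car3, Cidec and Plin1 against Adipoq, 1 point a mouse, numbered by replicate and coloured by genotype. Car3 and Cidec follow Adipoq over all 10 mice, with r of 0.955 and 0.924, while the r of Plin1 with Adipoq is 0.587 and turns on 2 mice, mINDY-KO replicate 5 at the top right and WT replicate 4 at the left.

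In mINDY-KO replicate 5, Adipoq lay 1.19 log2 units (2.28-fold) above the next mouse and Car3 1.25 units (2.38-fold). Of 9302 genes, 1 probe each, 3 lay more than 1 unit above every other mouse in this animal: Hspa1a, a heat shock protein gene, by 1.58, Car3 and Adipoq. No gene did so in any of the other 9 mice. The array of this mouse had a median signal of 194 and 13507 probes above background, inside the range of the others, and the part of this mouse's RNA in the group difference was not tested beyond the values without it. Plin1 ranked 244 by this gap.

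The genes whose levels were most like the mean of Adipoq, Car3 and Plin1 over 10 mice included known adipocyte genes. Of 9299 genes compared, 36 had an r of at least 0.8, 33 had one over the 9 mice without mINDY-KO replicate 5, and 2 had one in both sets. These were Ces1d, a lipase of adipocytes and liver (r 0.986, and 0.941 over 9 mice), and Cdo1, which starts the breakdown of cysteine (0.967, and 0.858 over 9). The Ces1d level was 1.16 in mINDY-KO replicate 5 and -0.45 to 0.23 in the other 9 mice, with a group difference of 0.52 (SE 0.20, limma adjusted p 0.371), which was 0.29 (SE 0.12, limma adjusted p 0.411) without that mouse. Next by r came Tmem199 with 0.944, Fbxo33 with 0.908, Got1 with 0.902, H4c6, Tnfrsf12a, Ms4a10, Vipas39, Tbk1, Etfrf1 and Vgf, the last with 0.869. Over 9 mice the r of Vgf was 0.412, so its likeness rested largely on mINDY-KO replicate 5.

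A wider list of 59 white adipocyte genes had 56 on the array and 41 above background in at least 5 mice. None of the 41 was called by limma at an adjusted p under 0.05, 6 were higher and 1 lower at an unadjusted p under 0.05 (4.33% and 7.04% of all 9302 genes), and the mean was higher in mINDY-KO mice for 27 (65.9%, against 43.6% of all genes) and lower for 14. These counts without mINDY-KO replicate 5 were 3, 2, 25 and 16. Their median difference was 0.036, against -0.02 over all genes. Of the 41, 15 (36.6%) were highest in mINDY-KO replicate 5, as were 9.44% of all genes. Most of these genes are also expressed by cells other than adipocytes, which their levels in the adrenal cannot separate. Those most like the members were, beside Ces1d, Lep (leptin, r 0.850), Agpat2 (a step of triglyceride synthesis, 0.826), Orm1 (0.823), Thrsp (0.809), Ephx2 (0.783), Dgat2 (the last step of triglyceride synthesis, 0.690), Scd1 (a fatty acid desaturase, 0.655), Cat (0.637) and Pparg (the adipocyte transcription factor, 0.617). With mINDY-KO replicate 5 left out, the r was 0.501 for Lep, 0.717 for Agpat2, 0.600 for Orm1, 0.744 for Thrsp, 0.577 for Ephx2, 0.444 for Dgat2, 0.626 for Scd1, 0.42 for Cat and 0.396 for Pparg, lower for each of them. Other probes of Pparg were above background in no mouse. Dgat2 differed by 0.49 (SE 0.12, limma adjusted p 0.158) and Agpat2 by 0.44 (SE 0.14, limma adjusted p 0.279), and without mINDY-KO replicate 5 by 0.41 and 0.34. Least like the members were Apoe (-0.658), Gpd1 (-0.640), Sfrp5 (-0.616) and G0s2 (-0.463). Without mINDY-KO replicate 5 their r was -0.531, -0.530, -0.634 and -0.158, so that of G0s2 rested largely on that mouse. Of the 15 white adipocyte genes on the array that were not above background in 5 mice, 8 were above it in more mINDY-KO than WT mice, 1 in more WT mice, 1 in as many of each and 5, Cd36, Fabp5 and Aqp7 among them, in no mouse. The gene above it in more WT mice was Fasn, the fatty acid synthase, above background in 3 WT mice and 1 mINDY-KO mouse. Such counts were not made over all genes near background, so no share stands beside them and they describe this list only. Adig, which adipocytes use in fat storage, was not above background in any WT mouse but was in 3 mINDY-KO mice, with a level of -0.45 in mINDY-KO replicate 5 and -1.24 to -0.83 in the others.

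Of the brown adipocyte genes above background, 0 of 12 were highest in mINDY-KO replicate 5, a count near the 9.44% of all genes highest there. Of 30 listed, 27 were on the array and 12 were above background in at least 5 mice, and limma called 0 of the 12, with 0 higher and 1 lower at an unadjusted p under 0.05, shares close to the 4.33% and 7.04% of all genes. Their mean level in mINDY-KO replicate 5 was 0.73, below the 0.85 to 1.03 of WT mice. Fabp3, a fatty acid carrier of muscle and brown fat, differed by -0.54 (SE 0.13, limma adjusted p 0.158) with an r of -0.665 with the members, and Cox8b (-0.617), Cox7a1 (-0.582) and Acot11 (-0.455) came next. Without mINDY-KO replicate 5 the r was -0.468 for Fabp3 and -0.272 for Cox8b and turned to 0.214 for Cox7a1 and 0.165 for Acot11, so the negative values of the last pair rested on that mouse. The difference of Fabp3 was then -0.47 (SE 0.13, limma adjusted p 0.273). The highest r values in this list were those of Cpt1b (0.329), Pank1 (0.275), Elovl4 (0.137), Acot2 (-0.075) and Kcnk3 (-0.11). Another probe of Cpt1b was above background in 1 mINDY-KO mouse only, and another of Acot11 in no mouse. Cidea, Elovl3, Dio2, Prdm16 and Zic1 were not above background in 5 mice.

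**Figure D3:**
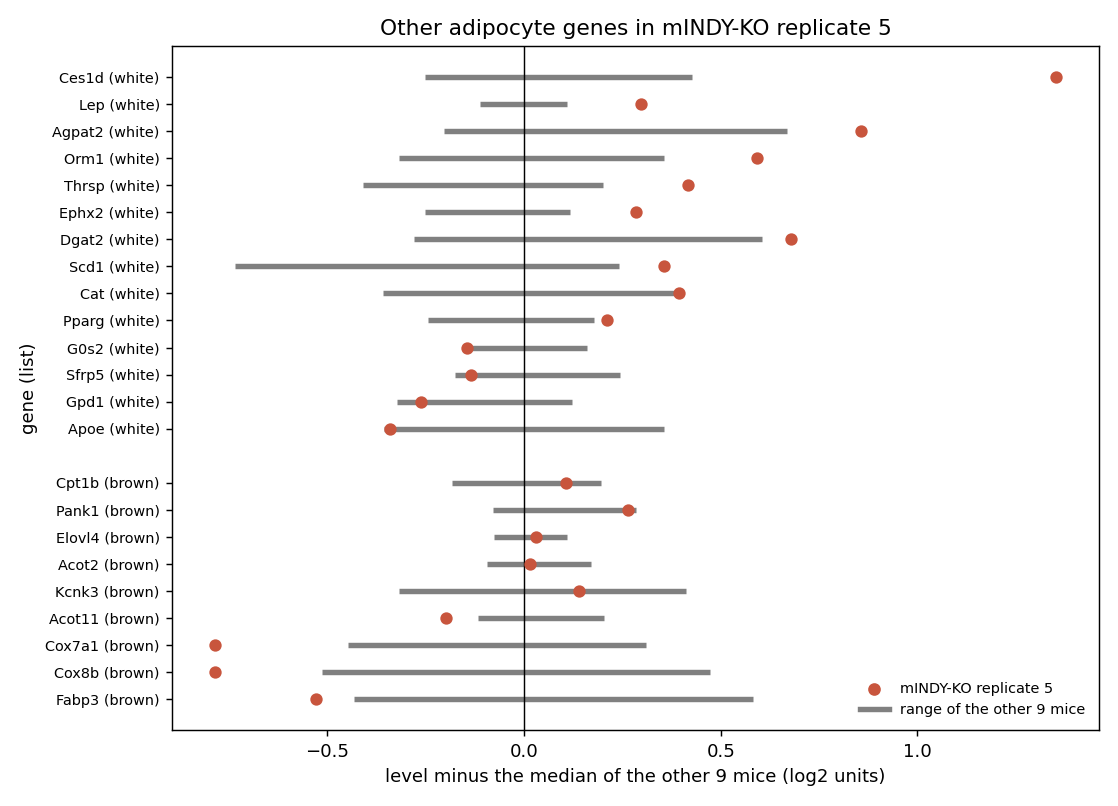
Level in mINDY-KO replicate 5 (points) minus the median of the other 9 mice, in log2 units, for the named genes of the white and brown adipocyte lists, with the range of the other 9 mice as grey bars. Ces1d lies farthest to the right and Cox7a1 and Cox8b farthest to the left.

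Genes of other cells that a dissected adrenal can hold were set beside the members. Of 14 genes of adipose stroma and mesothelium above background, 0 were highest in mINDY-KO replicate 5, and their mean level there was 0.67, within the 0.49 to 0.76 of WT mice. Among them the collagen genes Col3a1 and Col5a3 varied with the members (r 0.697 and 0.605 over 10 mice, 0.606 and 0.605 without that mouse), and Col5a3 differed by 0.43 (limma unadjusted p 0.0232, adjusted p 0.380). The collagen genes Col1a1 and Col1a2 had an r of 0.478 and 0.208 over 10 mice. Without that mouse the r of Col1a1 was higher than those of Col3a1 and Col5a3, and the r of Col1a2 was 0.269. The r was negative for Pdgfra (-0.588), Wt1 (-0.473), Mfap5 (-0.326), Dcn (-0.162) and Gsn (-0.069), and that of Mfap5 turned to 0.330 without that mouse. Of 7 blood cell genes above background, 0 were highest in mINDY-KO replicate 5, and their mean level there was 0.66, within the 0.50 to 0.88 of WT mice. The neutrophil genes S100a8 and S100a9 differed by 0.49 (limma unadjusted p 0.0104, adjusted p 0.310) and 0.33 (0.0141 and 0.328), and their r with the members was 0.655 and 0.395, or 0.590 and 0.307 without that mouse. Other neutrophil genes of that list did not go with these: Ltf differed by -0.092 with an r of -0.061, and Camp and Ngp were not above background in 5 mice. Macrophage genes had a mean level of 1.53 in that mouse, the lowest of the mINDY-KO mice but within the 1.29 to 1.83 of WT mice, with 0 of 10 highest there. Endothelial genes had 2.14 there against 2.15 to 2.29 in WT mice, with 1 of 11 called, Gpihbp1, which carries lipoprotein lipase to the capillary surface (0.72, limma adjusted p 0.0204). Adrenocortical genes had 3.70 there, 3.46 to 3.63 in WT mice and up to 3.70 in the other mINDY-KO mice. Chromaffin genes had 3.48 there against 3.23 to 3.70 in WT mice. Of 11 adrenocortical genes 1 (9.09%) was highest in that mouse, and of 13 chromaffin genes 3 (23.1%), against 9.44% of all genes. For lists this small, a count of 0 also lies near that share. The part of these cells in the values of the members was not tested.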

How the data were processed

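Adrenal RNA was measured on Illumina arrays, and the deposited table held a signal intensity and a detection p-value per probe from GenomeStudio 2011.1, without background subtraction, with the Z score of log10 signals per array that the authors computed in a second table. Probes were named by the platform annotation. Signals were turned into the same Z values and multiplied by 1.57, the mean SD of log2 signals, to give log2 units. Both arrays of WT replicate 1 were averaged. Probes with a detection p under 0.05 in at least 5 of 10 mice were tested between genotypes with limma 3.58.1 in R 4.3.3, adjusted by Benjamini-Hochberg over 13341 probes. The fit was tested on simulated data. The mice shared replicate numbers, which did not pair them (same-number correlations -0.304 to -0.108). Named were all members, the 12 genes most like their mean, up to 10 white and 5 brown adipocyte genes with the highest and 4 of each with the lowest correlation, and the gene of smallest p in other lists where described. Hspa1a, Adig, Fasn and marker genes outside this rule were named after their values were seen. The members and lists were chosen with earlier results of these data known. Alternatives were other scalings, filters, a replicate block and each mouse left out. List counts without mINDY-KO replicate 5 and correlations without WT replicate 4 were added after the data were seen. Nothing in the sources used here gives the position of arrays on slides.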

Additional observations from a re-analysis of the deposited data

Results flagged for a closer look

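Ucp1 in mINDY-KO replicate 4, at -0.926, lay above the other 4 mINDY-KO mice, at -1.19 to -1.15, by more of the group's range than Dixon's 95% value allows (0.819 against 0.71). Its signal was not above background in any mouse. It was the 1 far sample among 16 groups tested, and chance gives about 1 in 20.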

How the results depend on the processing

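No member passed the test under any of the 24 alternatives run. Adipoq kept its direction with 0.43 to 1.28 (limma adjusted p 0.258 to 0.756) and Car3 with 0.43 to 1.29 (0.228 to 0.722), the lowest values without mINDY-KO replicate 5 and the highest with normexp background correction and quantile normalization. Without mINDY-KO replicates 3 and 4, whose arrays had the lowest median signals, Adipoq differed by 0.97 (limma adjusted p 0.305) and Car3 by 1.12 (0.296). The part of array brightness in these values was not tested. Cidec ran from 0.26 to 0.62. Plin1 turned sign without mINDY-KO replicate 5 (-0.057) and without WT replicate 5 (-0.012), with 0.10 as its highest value with a mouse left out, without WT replicate 4, and the cause was not tested. The median of the tested members, 0.70, was 1.28 with normexp, 0.045 with no filter over 7 members, 0.033 with probes above background in all 10 mice, which left Plin1, and 0.43 to 0.88 with a mouse left out. The probes called were 2 in the main run. They were 0 with normexp, with centring on array medians and with no detection filter, each run alone. They were also 0 with mINDY-KO replicates 3 and 4 left out together. With the deposited Z scores 1 was called, and with the replicate block 1. At the methods' thresholds 111 were called (37 higher and 74 lower, with no member among them, and 0 after Benjamini-Hochberg at 0.05). With a mouse left out the count was 0 to 14, the most without mINDY-KO replicate 2. The mice shared only a number, and the replicate block changed no call of a member. Of the 12 genes most like the members, 7 were shared with centring on array medians, 8 with quantile normalization and 1 without mINDY-KO replicate 5. A slide block was not run. Signals near background limit what Cidec, Fabp4, Retn and Ucp1 can show.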

Other observations

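Hspa1a, whose level in mINDY-KO replicate 5 was 2.92 and at most 1.35 in the other 9 mice, had the largest gap of that mouse over all others among 9302 genes. The hormone precursor gene Vgf was 0.88 there and at most 0.025 in the others.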
